A study of Mus musculus with 745 samples.

Results

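Slc3a2, Slc7a5, Slc7a1, Slc1a1, Slc38a3, Slc38a5 and Slc6a6 encode carriers that move amino acids or taurine across the plasma membrane of brain endothelial cells, or, for Slc3a2, the subunit that such carriers need. They were picked by symbol, 7 of the 20607 gene symbols in the table, with earlier results of these data known. All 7 had counts and passed the filter on low counts. The series is about the entry of blood-borne proteins into the brain and its change in old animals. Every sample here was 1 primary brain endothelial cell of a 3-month-old mouse, dissociated with a neural tissue kit and sorted by FACS, and no treatment, genotype or second age was among the samples used here. Titles split the 745 cells into 3 sets, and 30.2% belonged to Young1, 34.6% to Young2 and 35.2% to AY_Y3. Whether a set stands for an animal, several pooled animals or a plate is not in the labels, so the spread between sets may be technical. The main p-values below compare groups of cells within sets. They measure only how far such differences vary from set to set, which may be technical too. The sources used here give neither strain nor sex, nor the markers of the sort.

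Median counts per cell were 757949, 713031 and 411397 in Young1, Young2 and AY_Y3, over a range of 52819 to 2421434, and AY_Y3 was the shallowest set. The endothelial label held up in the counts: of 12 listed endothelial markers, a cell had a count for a median of 10 and for at least 5. The most widely counted were Ly6c1, Cldn5 and Flt1, in 99.9%, 99.2% and 99.1% of cells. The least were Tie1 (67.2%), Kdr (64.8%) and Erg (40.5%, with a median of 0 CPM). Cells that carried over 10% as many transcripts from another cell type's marker list as from the endothelial list (23.6% of all) were left out, which kept 569 cells, 31.5% of them from Young1, 33.9% from Young2 and 34.6% from AY_Y3. The astrocyte list took out 14.6% of all cells and the pericyte list 10.3%. For 65 cells this rested on a single gene of the astrocyte list, Clu, and 40 of those 65 had arterial markers leading when the classes were drawn over all cells. Clu had a count in 57.02% of the arterial-marker cells drawn that way and in 7.50% of the capillary-marker cells. The tests of each carrier in arterial-marker cells are therefore also given with the astrocyte list taken without Clu, a choice made after seeing the data; shares, ratios and correlations are given with the full list only.

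The brain's endothelium is sealed by tight junctions, so amino acids enter and leave mainly through carriers. The Slc7a5 protein (LAT1) exchanges large neutral amino acids such as leucine and phenylalanine, and also carries thyroid hormone and L-DOPA. It works only as a pair with the Slc3a2 glycoprotein (the CD98 heavy chain), which brings it to the membrane and which also pairs with other light chains and binds integrins. Slc7a1 carries arginine and lysine, Slc1a1 glutamate and aspartate with sodium, and Slc38a3 and Slc38a5 glutamine, histidine and asparagine in exchange for protons. Slc6a6 carries taurine, an osmolyte, with sodium and chloride. Along the vascular tree, Bmx and Gkn3 mark arterial, Cxcl12 and Rgcc capillary, and Nr2f2 and Il1r1 venous endothelium.

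The sequences just upstream of the start were matched by symbol for 4 of the 7 genes in RefSeq's promoter table (build GRCm38.p6), and they are shown because all 4 genes had lower sums in arterial-marker than in capillary-marker cells in every set, as given further on. Each run is the 250 bases before a start, 5′ to 3′ on the gene's strand. Capitals mark a match on either strand to 1 of 4 motifs: the C/EBP-ATF element of the amino acid response (TGATGNAAT), the GC box (GGGCGG), the E-box (CACGTG) and the RBPJ motif (GTGGGAA). None of these letters overlapped another motif's match here.
Slc3a2, chr19:8713898-8714147, minus strand: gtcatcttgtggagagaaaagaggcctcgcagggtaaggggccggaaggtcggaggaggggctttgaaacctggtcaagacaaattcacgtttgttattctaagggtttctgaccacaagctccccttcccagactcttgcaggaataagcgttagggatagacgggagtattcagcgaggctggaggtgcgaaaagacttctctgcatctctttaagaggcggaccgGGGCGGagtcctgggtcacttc
Slc7a1, chr5:148399905-148400154, minus strand: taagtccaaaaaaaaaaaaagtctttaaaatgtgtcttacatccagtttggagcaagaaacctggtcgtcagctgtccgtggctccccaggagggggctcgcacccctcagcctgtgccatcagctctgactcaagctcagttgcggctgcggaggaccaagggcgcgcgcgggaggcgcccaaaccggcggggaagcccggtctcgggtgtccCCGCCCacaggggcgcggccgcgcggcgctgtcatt
Slc1a1, chr19:28834885-28835134, plus strand: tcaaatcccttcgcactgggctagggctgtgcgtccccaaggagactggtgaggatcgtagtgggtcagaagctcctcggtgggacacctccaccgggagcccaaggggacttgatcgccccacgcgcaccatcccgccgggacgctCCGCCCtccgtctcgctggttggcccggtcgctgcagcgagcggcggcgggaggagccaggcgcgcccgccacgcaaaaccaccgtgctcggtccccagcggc
Slc38a5, chrX:8271131-8271380, plus strand: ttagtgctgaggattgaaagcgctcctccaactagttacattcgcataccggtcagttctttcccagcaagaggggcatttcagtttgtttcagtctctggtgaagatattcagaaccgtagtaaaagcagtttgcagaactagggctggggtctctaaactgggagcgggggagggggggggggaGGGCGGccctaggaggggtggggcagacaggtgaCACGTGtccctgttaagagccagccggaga

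All 4 held 1 GC box, at -22 in Slc3a2, -36 in Slc7a1, -103 in Slc1a1 and -64 in Slc38a5, counted from the start. GC boxes were present in 32.7% of the 32851 windows of the same length in the table. Slc38a5 also held an E-box at -30, and 6.02% of all windows held that motif. The letters of the C/EBP-ATF element and of the RBPJ motif were in none of the 4 windows, and in 0.816% and 5.42% of all windows. GC content was 53.6% in Slc3a2, 62.4% in Slc7a1, 70.4% in Slc1a1 and 55.2% in Slc38a5, against a median of 52.4% over the table. A second start of Slc7a1 in the table held no match.

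The 7 transcripts fell into a widely and a narrowly detected group. Slc6a6 had a count in 97.2%, 96.4% and 93.4% of the kept cells in Young1, Young2 and AY_Y3, Slc3a2 in 86.6%, 87.05% and 92.4%, and Slc7a5 in 81.01%, 83.9% and 87.3%. Slc7a1 was counted in 55.3%, 64.8% and 75.6% of cells, Slc38a3 in 57.5%, 61.7% and 64.5%, Slc1a1 in 52.5%, 49.7% and 53.8%, and Slc38a5 in 38.5%, 44.6% and 54.8%. AY_Y3 had the highest share for every transcript but Slc6a6, for which it had the lowest, although it was the shallowest set. After every cell was thinned to 50000 counts, the shares ran from 90.9 to 94.8% for Slc6a6, 86.01 to 91.9% for Slc3a2, 74.9 to 82.2% for Slc7a5 and 37.4 to 54.8% for Slc38a5. Differences between sets were not tested, since a set has no replicate.

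Levels are given as CPM, a cell's counts scaled to a total of 1000000. The mean over cells was 2762 ± 224.03 CPM for Slc6a6 (SD, n = 3 sets, as for all ± values of CPM below) and 1829 ± 353 for Slc3a2. The means of the other 5 were 719 ± 122.1 for Slc38a5, 556 ± 80.1 for Slc38a3, 451 ± 105.4 for Slc7a1, 403 ± 12.7 for Slc7a5 and 317 ± 66.6 for Slc1a1. Slc7a5 varied least between sets, at 415, 389 and 404 CPM.

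In Young1 and Young2, Slc38a5 was counted in fewer cells than any other member, while in AY_Y3 Slc1a1 was. The median of Slc38a5 was 0 CPM in Young1 and Young2 and 323 in AY_Y3, while the highest cell reached 6907 CPM. Among cells with a count, its medians were 1292, 1405 and 1245 CPM. Slc6a6 and Slc3a2 were spread over most cells, with medians of 2189 and 1543 CPM over the 569 cells and maxima of 13928 and 11076 CPM. The SD over cells divided by the mean was 0.859 for Slc3a2 and 0.865 for Slc6a6, but 1.41 for Slc7a5, 1.44 for Slc38a3, 1.49 for Slc7a1, 1.55 for Slc38a5 and 1.78 for Slc1a1.

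Because the transcripts differ in length, levels were compared between genes as CPM per kilobase of exon (GENCODE M21 exons, which may not be the annotation the counts were made with). Slc3a2 was then highest at 518 ± 100 CPM per kb, followed by Slc6a6 at 327 ± 26.5 and Slc38a5 at 321 ± 54.5, which were within their SDs of each other. Slc7a5 (108.6 ± 3.42) and Slc38a3 (105.4 ± 15.2) differed by less than their SDs, as did Slc7a1 (39.1 ± 9.14) and Slc1a1 (38.4 ± 8.06). The other neighbours in this order stood apart by more than their summed SDs. Of the other light chains that can pair with Slc3a2, Slc7a7 stood at 3.91 ± 3.50 CPM per kb and Slc7a6 at 2.76 ± 0.581. Slc7a11, the cystine and glutamate exchanger, stood at 0.114 ± 0.0836 and Slc7a8 at 0.0492 ± 0.0853. Of these 5 light chains Slc7a5 had the highest level in each of the 3 sets.

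To place the carriers along the vascular tree, each kept cell was assigned to the class whose pair of markers stood highest, if it led by at least 0.5 SD. None of the 7 genes entered the rule. It gave 73 arterial-marker cells (13, 32 and 28 in Young1, Young2 and AY_Y3), 39.7% of the kept cells as capillary-marker cells (73, 66 and 87) and 18.5% as venous-marker cells (29, 37 and 39), and left the rest in no class. Such a class is a range cut from a score and not a cell type, and 86 cells lay within 0.25 of the lead required. Counts were summed per set and class, and edgeR's quasi-likelihood test compared the 9 sums over 8935 genes, with the set as a block and Benjamini-Hochberg adjustment. Between arterial-marker and capillary-marker cells it called 0.157% of all genes (14 of 8935), between arterial-marker and venous-marker cells 0.414% (37), and between venous-marker and capillary-marker cells 0.0224% (2). Of the 7 carriers, 3 passed in the first comparison, the same 3 (Slc3a2, Slc38a3 and Slc6a6) in the second, and 0 in the third. The first 2 comparisons share the arterial-marker sums. Because the 7 were chosen with earlier results of these data known, counts of them beside all genes, here and further on, are a description. Such counts do not test the group. At an unadjusted p below 0.05, edgeR had 6, 7 and 2 of the 7 in these comparisons, against 6.94%, 8.83% and 3.41% of all genes. DESeq2, with 6.78%, 9.32% and 2.10% of all genes called, called 6, 7 and 1 of the 7.

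**Figure D1:**
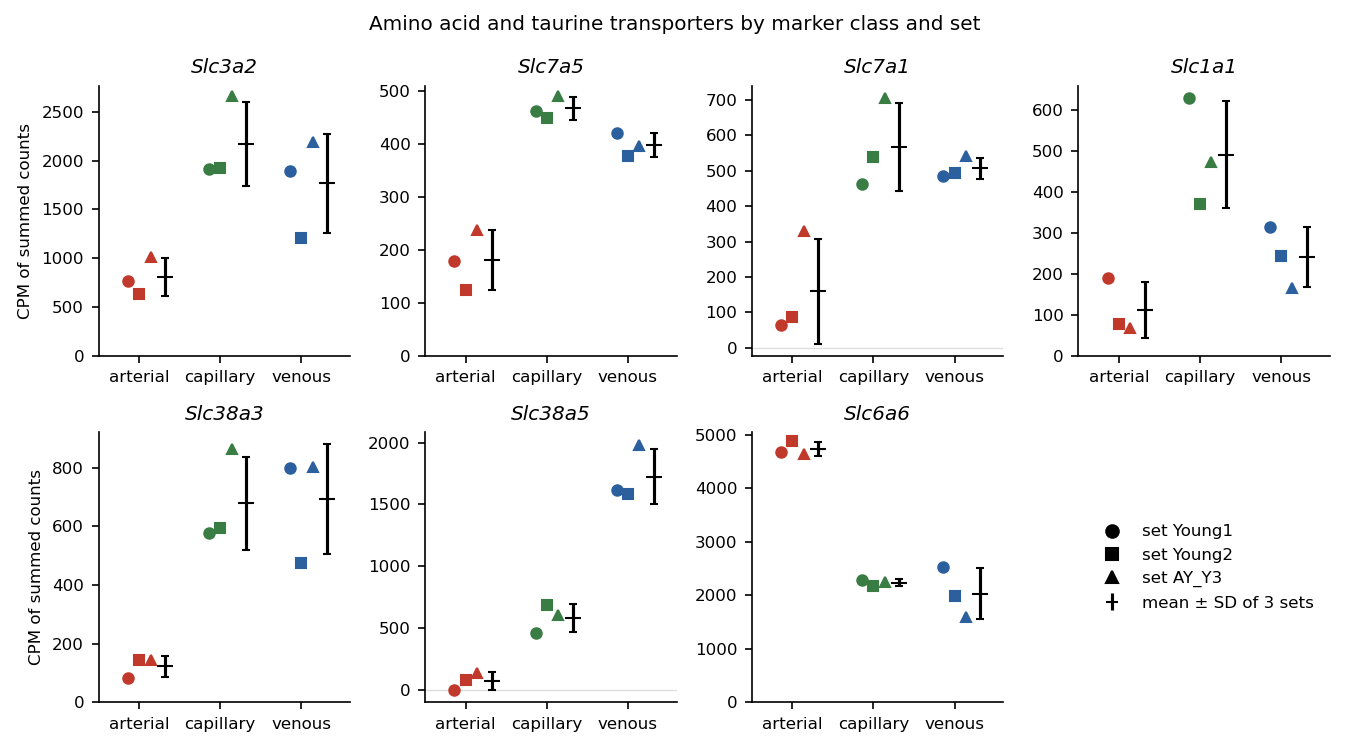
CPM of the summed counts (y axis, from 0) of each transporter in arterial-marker, capillary-marker and venous-marker cells (x axis); each symbol is 1 set and the bar is the mean ± SD of the 3 sets. Slc6a6 lies between 4636 and 4872 CPM in arterial-marker cells and at 2522 CPM or below elsewhere, while the other 6 lie lowest on average in arterial-marker cells and Slc38a5 peaks in venous-marker cells.

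Slc3a2, the heavy chain, was lowest in arterial-marker cells. Its CPM there were 763, 634 and 1014 in Young1, Young2 and AY_Y3, against 1917, 1920 and 2660 in capillary-marker and 1893, 1208 and 2195 in venous-marker cells. All 3 arterial values lay below all 6 others. The fitted log2 difference was -1.41 ± 0.15 (SE) against capillary-marker cells (edgeR adjusted p = 0.0383) and -1.05 ± 0.15 against venous-marker cells (adjusted p = 0.0402), so that capillary-marker cells held 2.51, 3.03 and 2.62 times the arterial level. Venous-marker and capillary-marker cells overlapped (-0.36 ± 0.15, adjusted p = 0.9995). Both calls need all 3 sets and the block: without Young1, Young2 or AY_Y3 the adjusted p was 0.169, 0.534 and 0.545 against capillary-marker and 0.196, 0.438 and 0.450 against venous-marker cells, and without the block it was 0.136 and 0.176. With DESeq2's size factors in edgeR the second call was lost too (adjusted p = 0.0521). Over all 16 alternatives it ran from 4.93e-17 to 0.594 and from 1.37e-09 to 0.573. With the astrocyte list without Clu the log2 differences were -1.74 ± 0.15 (adjusted p = 0.00592) and -1.42 ± 0.15 (adjusted p = 0.0110).

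Slc7a5, the light chain of the pair, had the same order of classes but did not pass. It stood at 180, 124.7 and 238.3 CPM in arterial-marker, 462, 449 and 491 in capillary-marker and 421, 377 and 397 in venous-marker cells, and none of these 3 groups overlapped. The log2 difference was -1.36 ± 0.24 between arterial-marker and capillary-marker cells (edgeR adjusted p = 0.170) and -1.10 ± 0.23 between arterial-marker and venous-marker cells (adjusted p = 0.153). Its share of detected cells was 53.8, 43.8 and 53.6% in arterial-marker cells and at least 87.7% in each set of the other classes; thinned, it was 40.6 to 46.4% and at least 81.8%. With the astrocyte list without Clu, Slc7a5 passed in both, at -2.35 ± 0.31 (adjusted p = 0.0478) and -2.13 ± 0.30 (adjusted p = 0.0284); over all 16 alternatives the adjusted p ran from 3.75e-06 to 0.806 and from 0.000344 to 0.591. The ratio of heavy to light chain counts differed between the 3 classes by less than their SDs, at 4.53 ± 0.480 in arterial-marker, 4.61 ± 0.696 in capillary-marker and 4.41 ± 1.16 in venous-marker cells.

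The cationic amino acid carrier Slc7a1 varied between sets in arterial-marker cells. They had 63.3, 86.3 and 330 CPM, with AY_Y3 well above the other sets, against 461, 538 and 705 in capillary-marker and 486, 495 and 541 in venous-marker cells. The arterial values lay below both other groups in all 3 sets, by 7.29, 6.24 and 2.13 times against capillary-marker cells. The log2 differences, -2.08 ± 0.43 (edgeR adjusted p = 0.244) and -1.93 ± 0.43 (adjusted p = 0.170), did not pass, and capillary-marker and venous-marker cells overlapped. With the astrocyte list without Clu they were -2.69 ± 0.54 (adjusted p = 0.148) and -2.56 ± 0.54 (adjusted p = 0.0960), and over all 16 alternatives the adjusted p ran from 9.68e-07 to 0.927 and from 4.47e-06 to 0.792.

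The glutamate carrier Slc1a1 was highest in capillary-marker cells in every set, and venous-marker cells held 0.499, 0.662 and 0.351 times that level. Its CPM were 628, 369 and 473 in capillary-marker cells, 313 and 244.2 in venous-marker cells of Young1 and Young2 (lower still in AY_Y3, by the ratio given), and 189.3, 78.7 and 67.4 in arterial-marker cells. The capillary values did not overlap with either other group, while the lowest venous value lay below the highest arterial one. The log2 differences were -2.21 ± 0.32 between arterial-marker and capillary-marker cells (edgeR adjusted p = 0.0806) and -1.08 ± 0.31 between venous-marker and capillary-marker cells (adjusted p = 0.901), and neither passed; nor did -1.13 between arterial-marker and venous-marker cells (adjusted p = 0.284). With the astrocyte list without Clu the arterial differences were -3.10 ± 0.89 (adjusted p = 0.363) and -2.19 ± 0.90 (adjusted p = 0.455), and over all 16 alternatives the adjusted p ran from 9.41e-10 to 0.806 and from 0.00768 to 0.796. A count was present in 71.2, 65.2 and 64.4% of capillary-marker cells and in 15.4% (Young1), 8 of 32 (Young2) and 17.9% (AY_Y3) of arterial-marker cells.

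Slc38a3 and Slc38a5 were both scarce in arterial-marker cells but differed in where they were high. Slc38a3 had 81.6, 144.1 and 144.1 CPM in arterial-marker, 577, 595 and 862 in capillary-marker and 797, 475 and 803 in venous-marker cells. The arterial values lay below all others, while the other 2 classes overlapped. The log2 difference was -2.42 ± 0.28 between arterial-marker and capillary-marker cells (edgeR adjusted p = 0.0383) and -2.42 ± 0.29 between arterial-marker and venous-marker cells (adjusted p = 0.0229), and 0.01 ± 0.27 between venous-marker and capillary-marker cells, with a sign that turned in 9 of 16 alternatives. Without Young1, Young2 or AY_Y3 the adjusted p was 0.169, 0.387 and 0.806 against capillary-marker and 0.117, 0.204 and 0.387 against venous-marker cells. With the astrocyte list without Clu the adjusted p was 0.0516 and 0.0226, at -3.30 ± 0.45 and -3.33 ± 0.45; over all 16 alternatives it ran from 3.11e-17 to 0.806 and from 6.80e-18 to 0.387.

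Slc38a5 was highest in venous-marker cells, with 1613, 1581 and 1982 CPM, against 464, 689 and 606 in capillary-marker and 0, 81.5 and 141.5 in arterial-marker cells. The 3 groups did not overlap, and venous-marker cells held 3.47, 2.30 and 3.27 times the capillary level. Venous sums lay above capillary sums without overlap in 7.02% of all genes. A count was present in 93.1, 89.2 and 94.9% of venous-marker cells, in 32.9, 40.9 and 50.6% of capillary-marker cells and in 0, 9.38 and 14.3% of arterial-marker cells. The 0 of 13 cells in Young1 allows a share of up to 23.1%, counting error only. It sets no close limit on the level, since kept cells of Young1 with a count had a median of 1292 CPM. No difference passed in edgeR, where the fitted values had large errors: 1.57 ± 1.34 between venous-marker and capillary-marker cells (adjusted p = 0.9995) and -5.07 ± 1.62 between arterial-marker and venous-marker cells (adjusted p = 0.378). Leaving out Young1, whose arterial sum was 0, gave -4.01 ± 0.30 for the latter (adjusted p = 0.0461), and the astrocyte list without Clu -5.26 ± 0.63 (adjusted p = 0.0135), with -3.69 ± 0.58 between arterial-marker and capillary-marker cells (adjusted p = 0.0830, range over all 16 alternatives 0.0446 to 1). With every cell placed in its leading class (no lead required), venous-marker against capillary-marker cells passed as well (adjusted p = 0.0442). Over all 16 alternatives the adjusted p ran from 0.0442 to 1 for venous-marker against capillary-marker cells and from 0.00470 to 0.782 for arterial-marker against venous-marker cells.

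Slc6a6, the taurine carrier, ran the other way. It stood at 4670, 4872 and 4636 CPM in arterial-marker cells, 2291, 2173 and 2245 in capillary-marker cells and 2522, 1985 and 1586 in venous-marker cells. Arterial values were close together and lay above all others, at 2.04, 2.24 and 2.07 times the capillary level. The log2 difference was 1.12 ± 0.13 between arterial-marker and capillary-marker cells (edgeR adjusted p = 0.0383) and 1.31 ± 0.14 between arterial-marker and venous-marker cells (adjusted p = 0.0140). Venous-marker and capillary-marker cells overlapped (-0.20 ± 0.13, adjusted p = 0.9995). Without Young1, Young2 or AY_Y3 the adjusted p was 0.169, 0.699 and 0.545 for the first comparison and 0.0911, 0.468 and 0.216 for the second, while the log2 difference stayed between 1.09 and 1.44. With the astrocyte list without Clu it was 1.21 ± 0.12 (adjusted p = 0.0179) and 1.46 ± 0.13 (adjusted p = 0.00412), and over all 16 alternatives the adjusted p ran from 5.01e-16 to 0.699 and from 1.32e-22 to 0.468.

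**Figure D2:**
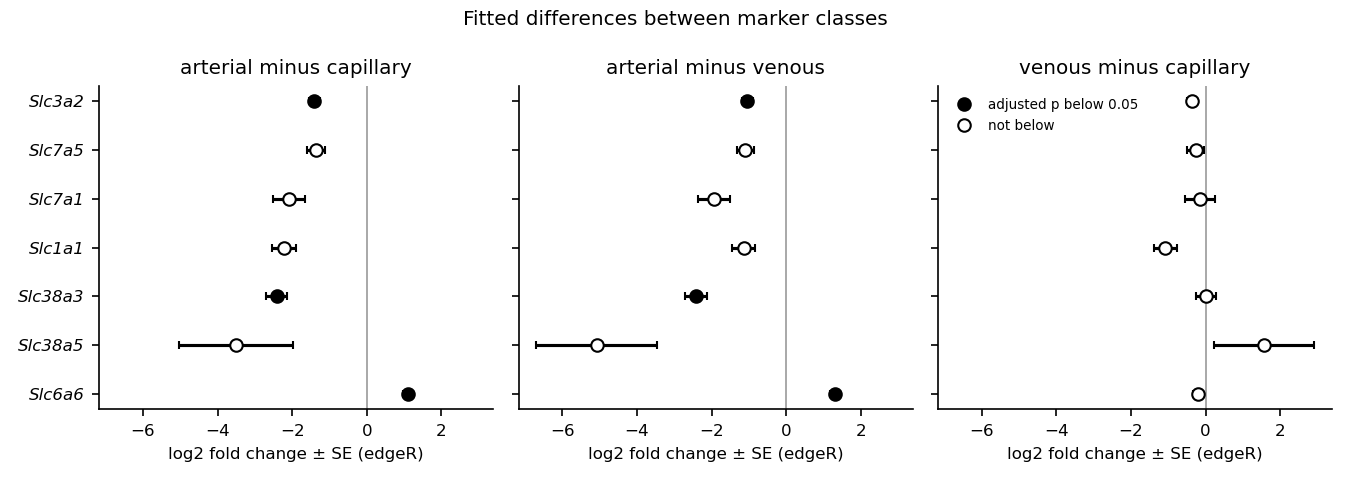
Fitted log2 fold change ± SE (x axis, edgeR) of the 7 transporters (y axis) for arterial minus capillary, arterial minus venous and venous minus capillary; filled points have an adjusted p below 0.05. Slc6a6 is the only transporter right of 0 in both arterial comparisons, at 1.12 and 1.31, and no point is filled in the comparison of venous-marker with capillary-marker cells.

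Over the 7 genes, the median log2 difference was -2.08 between arterial-marker and capillary-marker cells, -1.13 between arterial-marker and venous-marker cells and -0.20 between venous-marker and capillary-marker cells, against -0.14, -0.13 and -0.02 over all 8935 genes. The signs of all 7 were the same in all 16 alternatives for both arterial comparisons, but the sizes moved. Between arterial-marker and capillary-marker cells the log2 difference ran over these alternatives from -1.93 to -0.49 for Slc3a2, -2.36 to -0.96 for Slc7a5, -2.83 to -1.10 for Slc7a1, -4.71 to -1.25 for Slc1a1, -3.30 to -1.12 for Slc38a3, -6.74 to -0.74 for Slc38a5 and 0.70 to 1.27 for Slc6a6. In that comparison the value nearest 0 came, for all 7, with no lead required. The members' 3 sums did not overlap between arterial-marker and capillary-marker cells for 6 genes that were lower and 1 that was higher; 8.98% and 5.53% of all genes did so. Between arterial-marker and venous-marker cells this held for 5 that were lower (10.5% of all genes) and 1 that was higher (6.07%), and between venous-marker and capillary-marker cells for 2 that were lower (5.98%) and 1 that was higher (7.02%). Markers of other cell types and the number of genes per cell moved with the classes too. Astrocyte markers summed to 221.6 to 457 CPM in arterial-marker, 97.4 to 282 in capillary-marker and 32.2 to 104.8 in venous-marker cells, with 1, 4 and 2 of 10 markers at 0 (Aldh1l1; Aqp4, Gfap, Gjb6 and Aldh1l1; Aqp4 and Gjb6). Those astrocyte sums include Clu, counted in 57.02% of arterial-marker and 7.50% of capillary-marker cells when the classes were drawn over all cells. They were not computed without it. Pericyte markers summed to 92.1 to 175.4, 151.8 to 238.6 and 158.5 to 228.8 CPM, with 8, 2 and 6 of 10 at 0, among them Pdgfrb in arterial-marker and venous-marker cells. Smooth muscle markers summed to at most 2.17 CPM in any class and set, with 5 of 6 at 0 in arterial-marker cells. Thinned to 50000 counts, arterial-marker cells had a median of 1645 to 2001 genes, capillary-marker cells 1413 to 1703 and venous-marker cells 2133 to 2273. The part of these in the differences was not tested, beyond the alternatives given.

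The number of the 6 amino acid genes counted in the same cell followed the classes. Arterial-marker cells had a median of 2 of the 6 in each set, capillary-marker cells 4, 4 and 5, and venous-marker cells 5 in each set. At a depth of 50000 counts per cell the medians were 2, 1 and 2 in arterial-marker cells and the same as before in the other classes. All 6 were counted in 34.5, 29.7 and 38.5% of venous-marker cells, 9.59, 19.7 and 21.8% of capillary-marker cells and 0, 3.12 and 3.57% of arterial-marker cells. The 0 of 13 in Young1 allows up to 23.1%. No venous-marker cell had fewer than 2 of the 6, whereas 4 of 13, 15 of 32 and 7 of 28 arterial-marker cells had 0 or 1.

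Levels were also followed against the number of markers of a pair that reached 10 CPM, with no class rule. With 0, 1 and 2 of the arterial markers Bmx and Gkn3 (478, 65 and 26 cells), Slc3a2 stood at 2018 ± 426, 1056 ± 314 and 456 ± 150 CPM per cell and Slc7a5 at 440 ± 8.09, 244.4 ± 65.01 and 101.3 ± 36.3. Slc6a6 stood at 2420 ± 415, 4075 ± 194.2 and 5223 ± 401 CPM. These slopes were opposite, and in Slc3a2, Slc7a5 and Slc6a6 the values at 0 and 2 markers lay apart by more than their summed SDs. Slc38a3 dropped from 638 ± 93.03 to 108.9 ± 67.6 with 1 marker and stood at 138.2 ± 11.3 with 2, and Slc1a1 had 361 ± 57.4, 66.9 ± 19.1 and 147.2 ± 201.8. Slc7a1 had 502 ± 126.1, 207.2 ± 82.3 and 181.02 ± 156.6. Slc38a5 had 830 ± 167.4, 185.01 ± 132.6 and, with 2 markers, 41.7 CPM on average over sets that ran from 0 to 114.1. Steps with 26 cells rest on few cells per set, and these values carry no test.

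Against the venous markers Nr2f2 and Il1r1 (428, 86 and 55 cells with 0, 1 and 2), Slc38a5 stood at 479 ± 135.3, 1316 ± 227.3 and 1689 ± 463 CPM. Slc1a1 went the other way, from 343 ± 79.9 to 273 ± 29.4 and 163.5 ± 16.8 CPM, and Slc6a6 from 2903 ± 225.4 to 2444 ± 665 and 2071 ± 400. Slc3a2 (1840, 2047 and 1476) and Slc38a3 (525, 724 and 535) had their highest mean with 1 marker. Slc7a5 (404, 403 and 368) and Slc7a1 (444, 456 and 506) differed between 0 and 2 markers by less than their summed SDs. Against the capillary markers Cxcl12 and Rgcc (26 cells with 0 and 368 with 2), Slc1a1 stood at 141.2 ± 167.5, 194.8 ± 44.8 and 393 ± 91.9 CPM and Slc38a5 at 1258 ± 405, 740 ± 200.7 and 681 ± 177.6. Slc3a2 was flat within its spread there, at 1957 ± 1020, 1785 ± 407 and 1852 ± 314. Slc7a5 (523, 287 and 452) and Slc7a1 (583, 329 and 495) had their highest mean with 0 capillary markers. Slc38a3 (456, 424 and 620) had its highest mean with 2 and Slc6a6 (1755, 2964 and 2693) with 1. The step with 0 capillary markers rests on 26 cells, and these values carry no test.

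**Figure D3:**
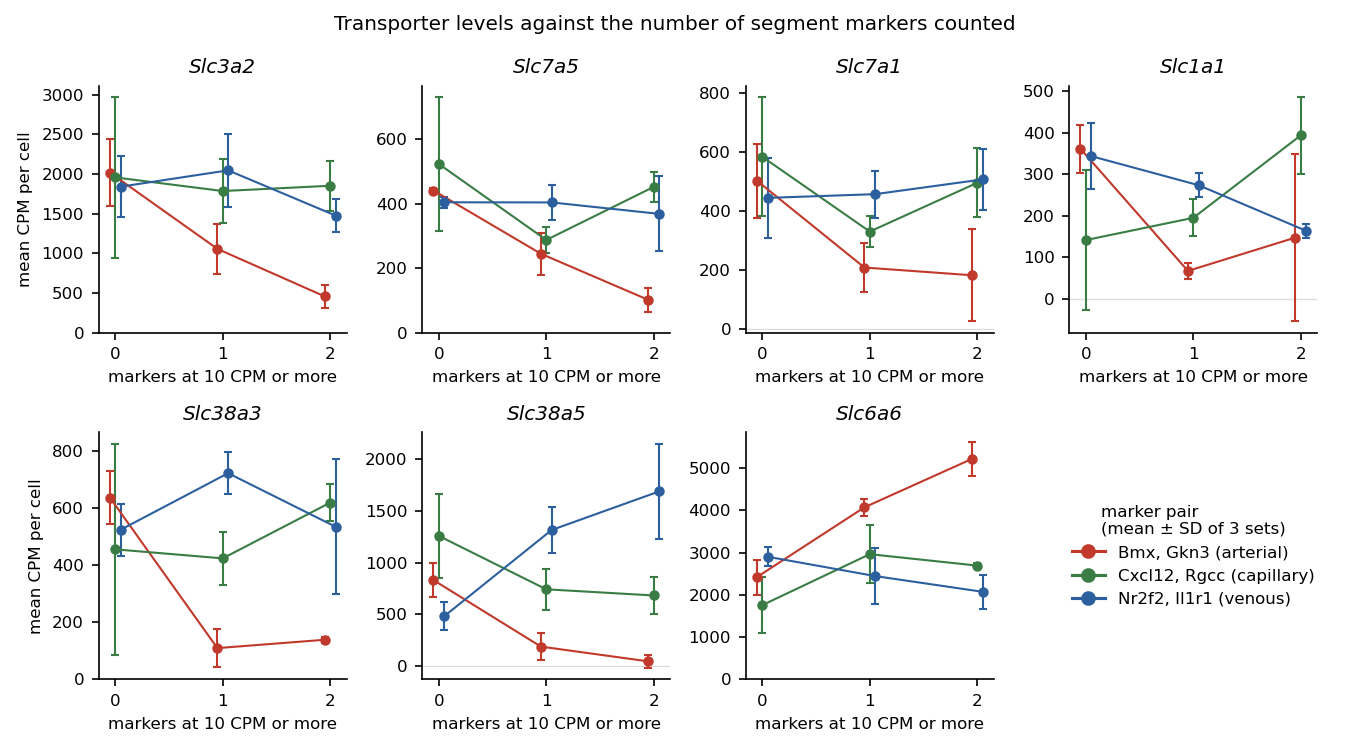
Mean CPM per cell (y axis, mean ± SD of the 3 sets) of each transporter against the number of markers of a pair at 10 CPM or more (x axis), for the arterial, capillary and venous pair. With the arterial pair Slc6a6 climbs from 2420 to 5223 CPM while Slc3a2 drops from 2018 to 456, and with the venous pair Slc38a5 climbs from 479 to 1689.

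The heavy and the light chain were counted together in most cells. Both Slc3a2 and Slc7a5 had a count in 74.9, 77.2 and 81.7% of cells in Young1, Young2 and AY_Y3, Slc3a2 alone in 11.7, 9.84 and 10.7%, Slc7a5 alone in 6.15, 6.74 and 5.58% and neither in 7.26, 6.22 and 2.03%. Slc7a5 was counted in 86.5, 88.7 and 88.5% of cells with Slc3a2 and, among cells without it, in 45.8% in Young1, 13 of 25 in Young2 and 73.3% in AY_Y3. At a depth of 50000 counts per cell these were 80.6, 82.5 and 82.9% with it and 37.5%, 55.6% and 12 of 16 without. Cells without Slc3a2 were few, so the second share is the less certain, above all in AY_Y3, where 11 of 15 such cells had Slc7a5. Mean Slc7a5 was 466, 418 and 411 CPM in cells with Slc3a2 and 84.8, 196.4 and 317 CPM in cells without.

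On log2(CPM + 10), Pearson's r between Slc3a2 and Slc7a5 across the kept cells of each set was 0.42, 0.35 and 0.18, as a description only, since the cells of a set are not independent replicates and differ in depth. Within capillary-marker cells it was 0.39, 0.34 and 0.12, within arterial-marker cells 0.56, 0.24 and 0.01, and within venous-marker cells 0.37, -0.08 and -0.15. The relation was thus weak in AY_Y3 and did not appear among the venous-marker cells of Young2 and AY_Y3. Among the other 6 members, Slc7a5 had its highest mean r over sets with Slc7a1 (0.36), followed by Slc38a3 (0.33) and then Slc3a2 (0.32). Every pair of the 6 amino acid genes had a positive mean r, the lowest being 0.10 between Slc1a1 and Slc38a5.

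**Figure D4:**
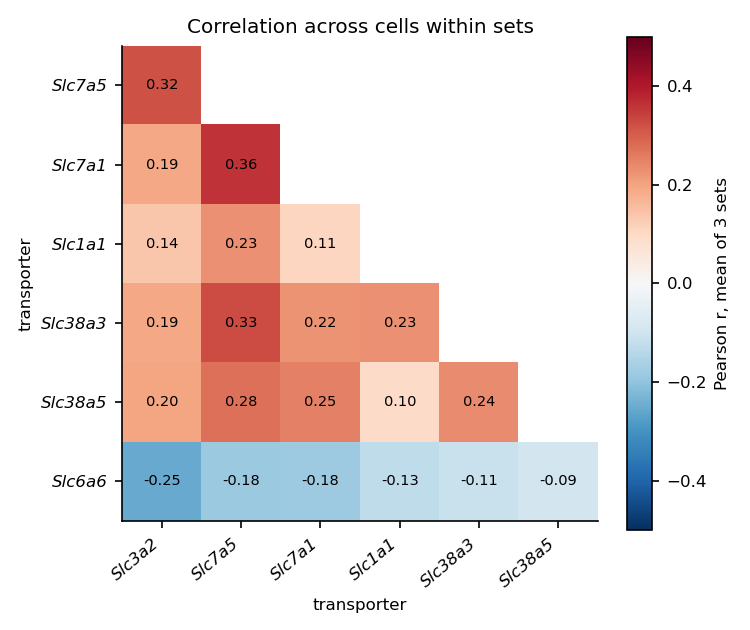
Pearson's r on log2(CPM + 10) across cells, computed within each set and averaged over the 3 sets, for each pair of transporters (both axes; the colour and the printed number give r). Slc6a6 is negative with all 6 others, from -0.25 with Slc3a2 to -0.09 with Slc38a5, and the highest value is 0.36 for Slc7a5 with Slc7a1.

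Slc6a6 had a negative mean r with each of the other 6. It was -0.20, -0.30 and -0.25 with Slc3a2 in Young1, Young2 and AY_Y3, and -0.18, -0.15 and -0.23 with Slc7a5. Within arterial-marker cells the r with Slc3a2 was -0.46, -0.27 and -0.32 and within capillary-marker cells -0.07, -0.31 and -0.18, but within venous-marker cells 0.05, 0.29 and -0.23. With Slc7a5 it was -0.44, -0.16 and -0.39 within arterial-marker, -0.080, 0.0022 and -0.085 within capillary-marker and 0.20, 0.22 and 0.13 within venous-marker cells. The sign was negative in all 3 sets within arterial-marker cells and, for Slc7a5, positive in all 3 within venous-marker cells; the difference between classes was not tested, and all these correlations are weak. The ratio of Slc6a6 to Slc3a2 counts was 6.13 ± 1.56 in arterial-marker cells (6.12, 7.69 and 4.57), 1.06 ± 0.187 in capillary-marker and 1.23 ± 0.468 in venous-marker cells. Slc6a6 exceeded Slc3a2 in 92.3, 100 and 92.9% of arterial-marker cells, 49.3, 60.6 and 41.4% of capillary-marker cells and 65.5, 67.6 and 46.2% of venous-marker cells. Shares and ratios here compare CPM and not CPM per kilobase.

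**Figure D5:**
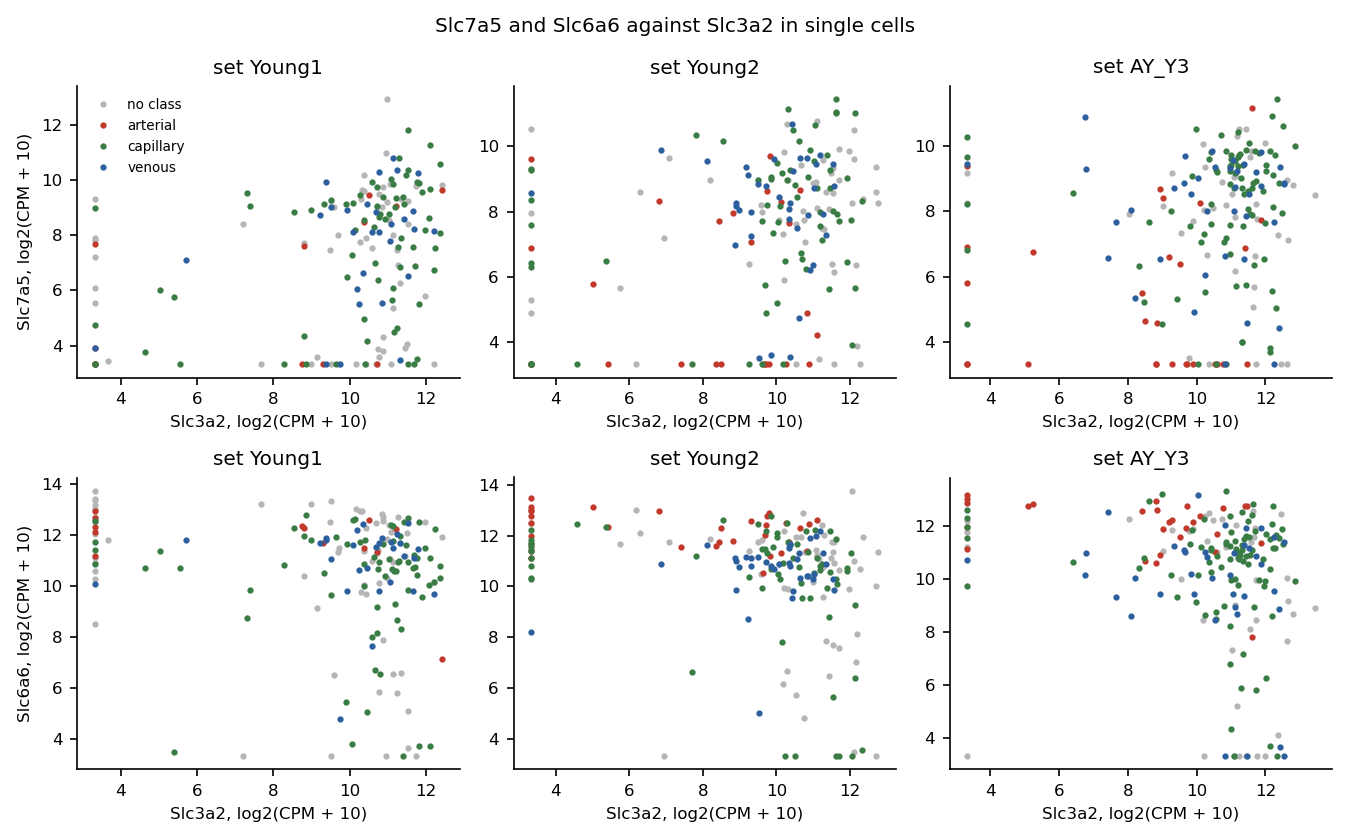
Each point is 1 kept cell, with Slc3a2 on the x axis and Slc7a5 (upper row) or Slc6a6 (lower row) on the y axis, all as log2(CPM + 10), 1 panel per set, coloured by marker class. Cells with no count lie at the left or lower edge; in the lower row the arterial-marker cells, 73 in all, gather at the top and reach to low Slc3a2.

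The genes most like 3 of the members were taken as the 5 with the highest mean r over sets among 3934 genes counted in at least 20% of kept cells. For Slc3a2 they were Gatm (0.37), a creatine synthesis enzyme, Slc7a5 (0.32), the organic anion carrier Slc22a8 (0.31), the membrane protein Itm2a (0.31) and the carbonic anhydrase Car4 (0.30). For Slc7a5 they were Gatm (0.44), the organic anion carrier Slco1a4 (0.38), Car4 (0.37), the transferrin receptor Tfrc (0.36) and Slc7a1 (0.36). For Slc6a6 they were Glul (0.39), which makes glutamine from glutamate, the surface protein Ly6a (0.31), the kinase Cdk19 (0.31), the alkaline phosphatase Alpl (0.27) and the tetraspanin Cd9 (0.26). On the list ordered by likeness to Slc6a6, Slc3a2 stood at 3929 of 3934 and Slc7a5 at 3914. Slc38a5 also varied with the number of genes counted per thinned cell (mean r 0.32), more than Slc3a2 did (0.05).

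Other carriers of amino acids, taurine, creatine and betaine were taken from a list. Of 44 listed, 35 were in the table and 11 were tested. In the order arterial against capillary, venous against capillary and arterial against venous, edgeR called 0 of 11 in each. At an unadjusted p below 0.05 it had 2, 1 and 3 of the 11, beside 6.94%, 3.41% and 8.83% of all genes. These shares of all genes apply to the lists below too. Slc1a2, among the 11, is also on the astrocyte list used to leave out cells, so that rule limited its values. It was among those below 0.05 in both arterial comparisons (edgeR unadjusted p = 0.0258 against capillary-marker and 0.0282 against venous-marker cells). The fitted log2 differences were above 0 for 4, 6 and 5 of the 11. Their medians were -0.62, 0.24 and -0.05, against -0.14, -0.02 and -0.13 over all genes. Among them, the glutamine carrier Slc38a2 stood at 66.9 ± 42.4, 75.3 ± 18.1 and 66.5 ± 38.4 CPM in arterial-marker, capillary-marker and venous-marker cells. It did not pass, with a log2 difference of -0.13 ± 0.85 between arterial-marker and capillary-marker cells. Of 9 genes of the amino acid response, 4 were tested and 0 called, with 0, 1 and 1 at an unadjusted p below 0.05. Its transcription factor Atf4 stood at 204.97 ± 118.3, 175.5 ± 36.6 and 106.8 ± 17.2 CPM in the 3 classes. The response's target Asns, asparagine synthetase, stood at 23.9 ± 40.2, 17.01 ± 29.3 and 78.8 ± 31.1. In AY_Y3 Asns had 70.3 CPM in arterial-marker and 50.9 in capillary-marker cells, against 1.46 or less there in Young1 and Young2. Of 6 genes of taurine synthesis and osmotic response, 5 were tested and 0 called, also at an unadjusted p below 0.05. Nfat5, the osmotic transcription factor, stood at 52.2 ± 33.3, 78.8 ± 18.2 and 113.7 ± 48.2 CPM, and its classes overlapped. DESeq2 called 3, 3 and 4 of the 20 genes tested over these lists in the same order of comparisons, beside 6.78%, 2.10% and 9.32% of all genes.

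The cells left out for other cell types' markers still held the 7 transcripts. Those with pericyte markers had lower means of Slc3a2, Slc6a6, Slc7a5, Slc7a1 and Slc1a1 than the kept cells in each set. Slc3a2 was 1268, 1494 and 1739 CPM against 1678, 1576 and 2233, and Slc6a6 2423, 2481 and 1423 against 2980, 2774 and 2532. Slc38a3 was higher in each set, at 746, 531 and 943 CPM against 557, 475 and 635. Slc38a5 was slightly higher in Young1 and lower in Young2 and AY_Y3. Those left out on the astrocyte list had 718, 790 and 633 CPM of Slc3a2, 102.9, 89.6 and 114.7 of Slc7a5 and 4967, 4429 and 4763 of Slc6a6. The means over the kept arterial-marker cells of each set were 1057, 579 and 920 for Slc3a2 and 4266, 5227 and 4858 for Slc6a6. Once Clu was taken off the list, the 37 cells still over the limit had 1516, 843 and 1338 CPM of Slc3a2 and 1596, 2095 and 2032 of Slc6a6.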

How the data were processed

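The values were whole-number read counts per gene symbol in 745 single cells, as deposited by the authors, with no normalization. Bowtie 0.12.2 and the builds mm8 and mm10 stand in the submitters' processing notes, with no role stated for a build. The counting tool, the annotation and strand handling were not given in the sources used here, so a gene and an overlapping or antisense neighbour may share reads. There are no molecular identifiers, so intervals and floors cover counting error only.

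CPM were computed from all counts of a cell. Each class score was the mean log2(CPM + 10) of its 2 markers, scaled within the set; a lead of 0.5 gave the class. Counts were summed per set and class (9 sums) and fitted with edgeR 4.0.16 (quasi-likelihood, TMM, set as block, 4 residual degrees of freedom, R 4.3.3) at an adjusted p of 0.05. The set is a block because every set gave all 3 classes; it pairs the sums by the title, not by an animal named in the labels. Genes passed edgeR's default filter and were counted in 5% or more of the cells used; the 6 markers were not tested. Alternatives were DESeq2 1.42.0, its size factors, no filter, no block, leaving out each set, other class rules, other limits for leaving out cells, thinning to 50000 counts, and cells below or above the median depth. The scripts were tested on simulated data for the arterial against capillary comparison. There edgeR called 0 of 100 genes changed by a log2 of 1, 25 of 100 changed by 2 and 2 of 8704 unchanged genes. A carrier that did not pass is therefore not shown to be equal between classes. No doublet caller was run; cells with markers of another type were left out instead.

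Named genes are the 7 carriers, listed genes past the threshold, and the 5 genes most like Slc3a2, Slc7a5 and Slc6a6. The other listed genes (Slc1a2, Slc38a2, Atf4, Asns, Nfat5 and the light chains) were named after their values were seen. The members and lists were chosen with earlier results of these data known.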

Additional observations from a re-analysis of the deposited data

How the results depend on the processing

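The share of genes called and the size of the carriers' differences both moved with the settings. Between arterial-marker and capillary-marker cells 0.157% of the genes fitted passed, and 6.78% with DESeq2, 0.0321% with no filter on low counts, 0% when any 1 set was left out, 0% with no lead required, 0.0221% with a lead of 1, 0.619% with longer marker lists, 0.642% with no cell left out, 0.0115% with cells left out at 2%, 0.544% after thinning and 0.0109% among cells at or above the median depth. Between venous-marker and capillary-marker cells 0.0224% passed, and under the same settings in that order 2.10%, 0%, 0%, 0.0442%, 0%, 0%, 0.0107%, 0.0115%, 0.0797% and 0%, then 0% among cells below the median depth and 0.0110% with the astrocyte list without Clu. Between arterial-marker and venous-marker cells 0.414% passed, and 9.32% with DESeq2, 0.118% with no filter, 0 to 0.0561% when 1 set was left out, 0.863% with longer lists, 1.64% with no cell left out, 0.0115% at 2%, 1.66% after thinning, 0.0656% at or above the median depth and 0.944% without Clu. Without the replicate block 0.168%, 0.0336% and 0.683% passed; of the 3 carriers called, Slc3a2 lost its calls and Slc38a3 and Slc6a6 did not. DESeq2 called 3, 3 and 4 genes over the wider lists, against 0. With no lead required, the arterial minus capillary difference of Slc3a2 was -0.49 in place of -1.41, of Slc38a3 -1.12 in place of -2.42 and of Slc38a5 -0.74 in place of -3.51. The cause of these shifts was not tested. Fits without a set also had fewer sums. All 7 carriers had 1 direction in both arterial comparisons under all 16 alternatives. Between venous-marker and capillary-marker cells Slc38a3 turned from 0.01 to -0.046 with no filter, -0.0090 without the replicate block, -0.17 with a lead of 1, -0.59 with longer lists, -0.086 with no cell left out, -0.22 at 2%, -0.019 after thinning and -0.054 at or above the median depth, and lay between -0.23 and 0.16 when 1 set was left out. Slc6a6 turned from -0.20 to 0.036 with longer lists. The r of Slc3a2 with Slc7a5 moved within classes to 0.56 (Young1, arterial), 0.015 (AY_Y3, arterial), -0.080 (Young2, venous) and -0.15 (AY_Y3, venous). Detection moved by more than its interval for 1 of 21 shares with a minimum of 10 CPM and 2 of 21 after thinning. The 13 arterial-marker cells of Young1 limit every arterial value.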
